A study of Mus musculus with 2 samples.

Results

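The Hox gene clusters were followed across murine thymic epithelial cells (TECs), the stromal cells that raise and select T cells. Members were all genes whose symbol is Hox, a cluster letter from a to d and a number, which gave 39 of the 32285 genes counted. They comprised 11 Hoxa, 10 Hoxb, 9 Hoxc and 9 Hoxd genes. Single-cell RNA sequencing covered TECs sorted as EpCAM+, CD45- and negative for the red-cell marker from C57BL/6 mice, in 1 library from mice given a sublethal 5.5 Gy of total body irradiation at 7 weeks of age and taken 15 days later, and 1 library from untreated mice. Each library pooled 3 female mice, and no other allele or agent was named. The labels give an age of 9 weeks for both, whereas the protocol text that goes with them names younger mice. The libraries are called smaller (3233 cells after filtering, 4937 barcodes) and larger (5070 cells, 7167 barcodes), because the sources disagree on which was irradiated. The sample labels call the smaller library irradiated, whereas the names of its deposited tables and the cell numbers in the study make it the untreated one, so every ratio below is larger over smaller and its sense as an effect of irradiation is not settled. With 1 library per condition no test between conditions was possible, and the 95% intervals given (exact Poisson for sums of molecules, Clopper-Pearson for shares of cells) cover counting error only.

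Hox proteins are homeodomain transcription factors that give cells positional identity along the body axis. Their genes lie in 4 clusters, and within a cluster the order of the genes follows the order of their domains, with low paralog numbers anterior and high paralog numbers posterior. The thymus arises from the endoderm of the third pharyngeal pouch, where Hoxa3 is required for the organ to form. Medullary TECs (mTECs) also transcribe many genes of other tissues as self-antigens, in part through the nuclear protein Aire, and posterior Hox genes mark tissues far from the pharynx.

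In GRCm38 coordinates the Hoxa genes lie on the minus strand of chromosome 6 (Hoxa2 to Hoxa13 between 52162417 and 52260880), the Hoxb genes on the plus strand of chromosome 11 between 96194316 and 96368256, the Hoxc genes on the plus strand of chromosome 15 between 102921103 and 103036852, and the Hoxd genes on the plus strand of chromosome 2 between 74668310 and 74765142. Windows of 300 bases around a gene's start (250 before and 50 after, RefSeq, GRCm38.p6) were at hand for 22 members, in 24 windows. The windows of 4 members are shown because their genes followed different patterns: Hoxa2 and Hoxa3 were found above all in cTEC-like cells and in clusters with little Aire (C8, C1, C2, C4 and C11 below), Hoxb8 mostly in an Aire-rich cluster (C0 below), and Hoxd3 in that cluster and in one of intestinal genes (C3 below). Capitals mark matches on either strand to TGATNNAT, a form of the site bound by Hox proteins with their Pbx partners, and to TTTATG, a form of the site of Cdx and posterior Hox proteins.
Hoxa2 (minus strand, chr6:52164782-52165081): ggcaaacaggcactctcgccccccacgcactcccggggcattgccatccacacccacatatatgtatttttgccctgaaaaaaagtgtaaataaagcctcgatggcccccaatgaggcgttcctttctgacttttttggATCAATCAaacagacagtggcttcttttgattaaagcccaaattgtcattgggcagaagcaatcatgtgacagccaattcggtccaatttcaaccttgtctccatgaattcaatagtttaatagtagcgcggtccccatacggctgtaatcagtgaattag
Hoxa3 (minus strand, chr6:52213018-52213317): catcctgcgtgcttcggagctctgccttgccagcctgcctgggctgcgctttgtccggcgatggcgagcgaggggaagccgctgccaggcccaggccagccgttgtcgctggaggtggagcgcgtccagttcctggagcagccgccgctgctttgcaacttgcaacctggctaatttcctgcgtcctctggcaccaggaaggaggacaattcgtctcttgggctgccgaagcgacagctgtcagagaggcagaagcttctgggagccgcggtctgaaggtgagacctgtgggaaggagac
Hoxb8 (plus strand, chr11:96281655-96281954): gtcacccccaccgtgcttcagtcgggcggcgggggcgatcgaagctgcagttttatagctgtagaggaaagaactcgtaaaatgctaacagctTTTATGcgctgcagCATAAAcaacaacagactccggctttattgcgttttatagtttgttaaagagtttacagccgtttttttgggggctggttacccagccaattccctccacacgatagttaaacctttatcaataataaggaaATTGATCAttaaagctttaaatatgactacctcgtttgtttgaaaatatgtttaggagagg
Hoxd3 (plus strand, chr2:74711743-74712042): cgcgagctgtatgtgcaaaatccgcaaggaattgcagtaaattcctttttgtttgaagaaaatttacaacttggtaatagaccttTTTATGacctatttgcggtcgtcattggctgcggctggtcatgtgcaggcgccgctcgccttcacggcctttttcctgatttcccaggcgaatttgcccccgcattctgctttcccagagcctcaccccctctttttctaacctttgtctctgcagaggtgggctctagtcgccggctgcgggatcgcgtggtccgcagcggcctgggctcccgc
TGATNNAT was found in 4 of the 24 member windows and in 8.85% of all 32851 windows, and TTTATG in 5 of 24 against 11.9%. CpG dinucleotides numbered 4 to 45 in the member windows with a median of 14.5, and the median over all windows was 7. These matches describe the sequence and are no measure of binding.

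Hox transcripts were rare in TECs. The 39 genes together gave 10187 unique molecular identifiers (UMIs, each standing for 1 captured transcript end, so that levels were not divided by transcript length), or 0.00801% of all UMIs of the kept cells. Their summed level was 91.3 CPM (UMIs of the genes per 1000000 UMIs of the same cells; 88.7 to 94.0) in the smaller library and 72.5 (70.6 to 74.4) in the larger. Every member had a UMI, and Hoxd12 was at 0 in the smaller library, where a count of 0 allows up to 0.0715 CPM by the exact Poisson interval. After each cell was thinned to 4000 UMIs, 22.2% of cells in the smaller library (20.8 to 23.7) and 20.3% in the larger (19.2 to 21.4) held at least 1 Hox UMI.

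A set of 15 members reached 200 UMIs over both libraries and held 85.9% of the Hox UMIs. They were Hoxa2, Hoxa3, Hoxa4, Hoxb2, Hoxb3, Hoxb8, Hoxb9, Hoxb13, Hoxc6, Hoxc8, Hoxc9, Hoxc10, Hoxc11, Hoxd3 and Hoxd4. The other 24 members had 2 to 155 UMIs. Hoxc11, a posterior paralog of the hindlimb and urogenital region, had the most UMIs, at 15.6 CPM (14.5 to 16.7) in the smaller library and 12.1 (11.3 to 12.9) in the larger. Hoxb2, an anterior gene of the hindbrain and pharyngeal arches, stood at 8.90 and 7.60 CPM in the smaller and larger library. Hoxa3 itself stood at 7.17 and 6.91, which overlapped in their counting intervals. Hoxb9, at 7.06 and 5.27, and Hoxa2, at 5.06 and 5.93, came next by total. Summed over all cells, paralogs 1 to 3 stood at 27.6 and 25.6 CPM, paralogs 4 to 8 at 25.2 and 16.98 and paralogs 9 to 13 at 38.6 and 29.9.

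The members differed by cell type. Cells were clustered without the Hox genes, so that no Hox gene decided where a cell was placed, and 14 clusters (C0 to C13) were found. With the small C12 and C13 left out, 7 of the 15 members of at least 200 UMIs had the same highest cluster in both libraries. By the marker lists C8 was cTEC-like (cortical TEC, led by Psmb11 and Prss16), C9 tuft-like (Avil, Trpm5), C6 TA-mTEC-like (transit-amplifying, Ube2c, Birc5), C11 nurse cTEC-like (cortical genes with thymocyte genes such as Cd8b1 and Rag1, where doublets could not be told apart), C12 neuroendocrine-like (Chgb, Snap25; 42 cells) and C13 ciliated-like (20 cells). The others are given by number and leading genes. C0 was led by S100a9 and S100a8 and C7 by Arhgdig and Mamstr, and both were rich in Aire (11 and 12.1 UMIs per 10000). C3 was led by Pnp2, Ccl9, Muc13 and Lypd8, genes of the intestinal epithelium, and mixed enterocyte-like and microfold-like markers at an Aire level of 4.79 per 10000. C1 and C2 held Ccl21a, the chemokine of Aire-low mTECs, at 127 and 102 per 10000, C4 was led by Serpinf1 and Prelp with Pdpn at 1.22 per 10000, C5 held both Ccl21a and Aire (51.4 and 1.41), and C10 was led by Gm94, Bpifa1 and Spink5. In C5 the parathyroid markers summed to 4018 and 2443 CPM in the smaller and larger library. There 0.89% and 0.77% of the cells held 2 or more of them. Epcam, the sort marker, had a UMI in 97.7% and 97.9% of the cells of the smaller and larger library, and Ptprc (CD45) in 4.24% and 4.34%.

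Hoxa2 and Hoxa3, anterior Hoxa genes, were found above all in C1, C2, C4, C8 and C11. Hoxa3 stood at 14.8 and 13.9 CPM (smaller and larger library) in C1, 11.7 and 13.5 in C2 and 13.4 and 16.5 in nurse cTEC-like C11. In C0 it was 0.93 and 1.13 and in C7 0.97 and 0.92. Each of C1, C2, C4, C8 and C11, which held no more than 0.135 Aire UMIs per 10000, stood above each of C0, C3, C6 and C7, at 4.79 to 12.1 Aire UMIs per 10000, in both libraries, for Hoxa3 and for Hoxa2. Little Aire alone did not mark these cells. Tuft-like C9, C10 and C12, at 0.33, 0.41 and 0.28 Aire UMIs per 10000, held Hoxa3 at 2.60 and 1.15, 4.66 and 2.48, and 0 and 0, below the 8.26 and 8.50 of C5, which held 1.41 of Aire. TA-mTEC-like C6, with 5.74 of Aire, had 5.41 and 3.99 of Hoxa3. Hoxa4 was highest in C4, at 9.65 and 10.7, followed by 4.79 and 4.29 in C1, and stood at 0.21 and 0.41 in C0.

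Hoxa3 stood at 20.9 (16.8 to 25.6) and 13.5 (10.1 to 17.7) CPM in C4, and at 17.8 (12.9 to 23.9) and 16.4 (13.2 to 20.2) in cTEC-like C8. It stood at 1.30 (0.60 to 2.48) and 0.28 (0.03 to 1.02) in C3. The share of cells with a Hoxa3 UMI was 23.0% and 20.7% in C8 and 1.62% and 0.39% in C3, at median depths of 14216 and 13354 UMIs per cell. Thus, as point values, the level in the cTEC-like cells was more than 10 times that in C3 at nearly the same depth. The intervals of the smaller library also allow a lower ratio. C8 also held Ccl21a, at 47.8 UMIs per 10000 against 3.18 in C11, so its level may not be that of cortical cells alone. Hoxa2, which patterns the second pharyngeal arch, gave 15.5 and 15.5 in C4, 12.6 and 12.9 in C8 and 0.87 and 0.84 in C3. Its profile over the 12 clusters of at least 100 cells was the closest to that of Hoxa3 of any pair within the Hoxa genes described (Pearson r 0.98 over 12 clusters of the same libraries, a description).

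Hoxb2 followed the anterior Hoxa genes less steeply. It stood at 14.4 and 14.5 CPM in C4, 15.8 and 14.2 in C2, 12.6 and 10.9 in C8, 6.52 and 4.70 in C0 and 2.75 and 2.67 in C3. It was thus present in every cluster of at least 100 cells and lowest in C3, C7 and C9. In C10 it reached 22.5 in the smaller library, with 17.9 of Hoxb3, but 9.10 and 2.48 in the larger, from 91 and 92 cells.

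Mesenchymal RNA moved with the anterior Hoxa genes in part. The 9 mesenchymal markers, all with UMIs, summed to 2019 and 1119 CPM in C4, of which Dcn gave 1887 and 1030, and to 543 and 432 in C1. They summed to 265 and 256 in C0 and to 189 and 68.9 in C8, where Pdgfra was at 0. Without the cells that held UMIs of 2 or more of these markers, Hoxa3 in C4 stood at 20.9 and 13.7, against 20.9 and 13.5 with them, and Hoxa2 at 14.2 and 13.98, against 15.5 and 15.5. This left out 15.8% and 13.1% of the C4 cells, and cells with Dcn alone stayed in. Whether the Hoxa levels of C4 depend on mesenchymal RNA was thus not tested.

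**Figure D1:**
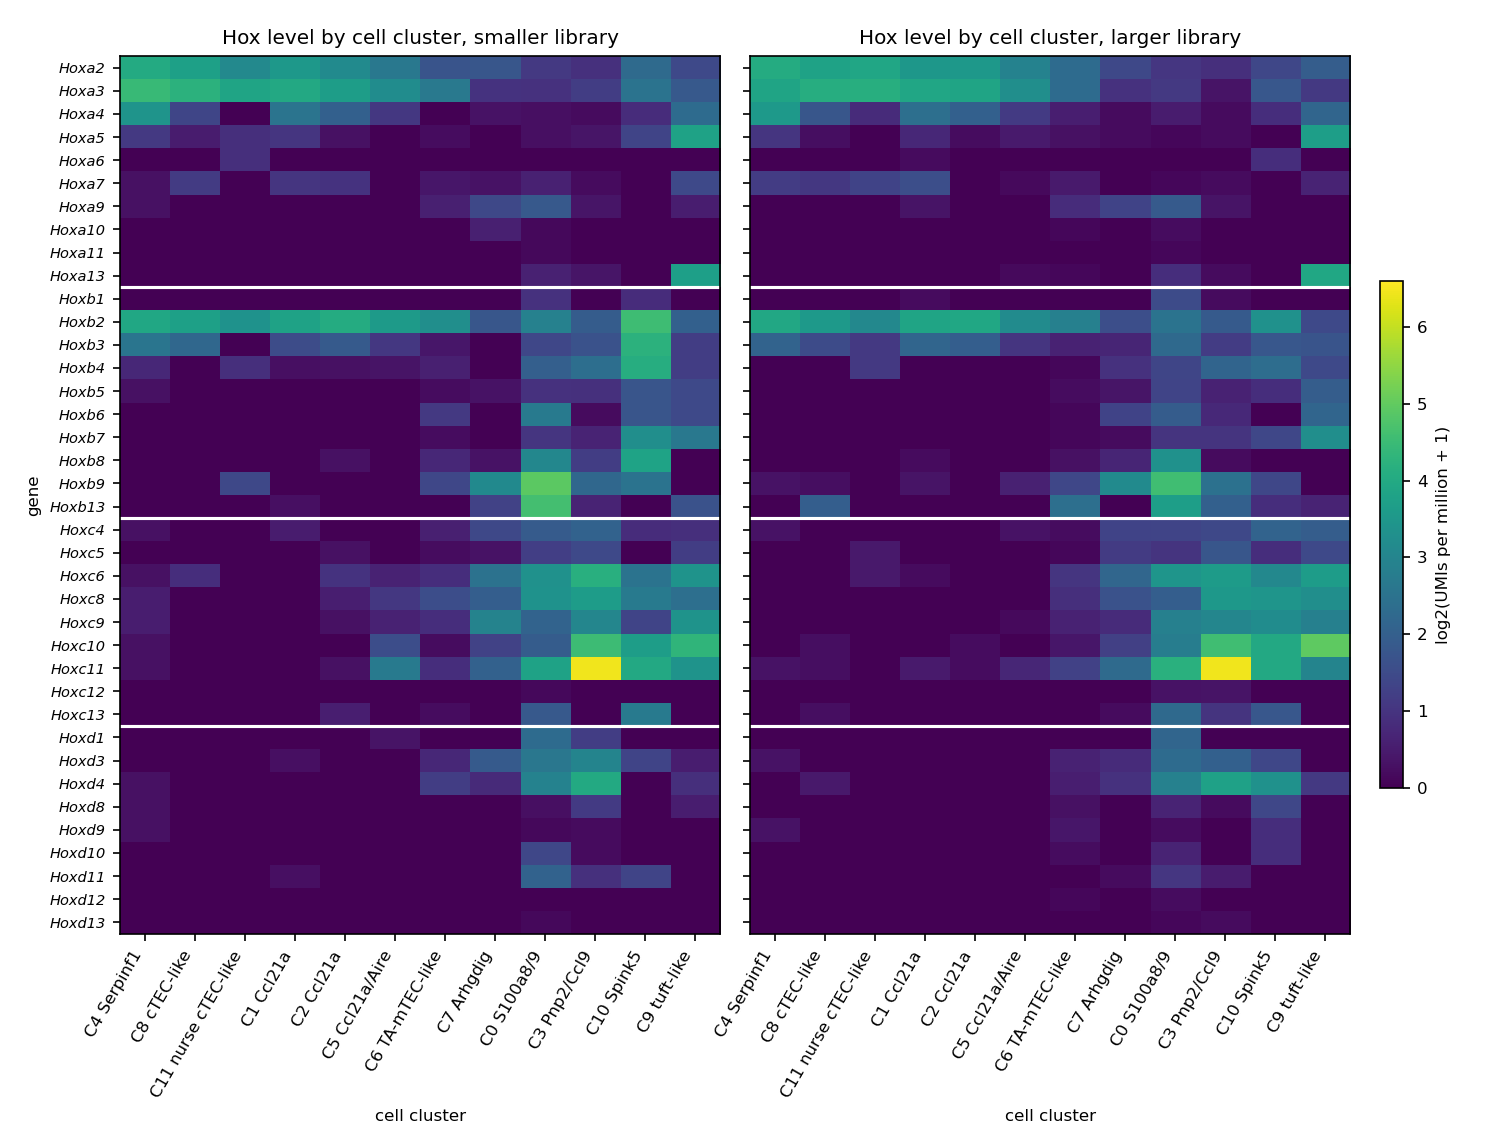
Level of 38 Hox genes (rows, grouped by Hox cluster) in 12 cell clusters (columns), in the smaller (left) and larger (right) library, as log2 of CPM plus 1; C12 and C13, of 42 and 20 cells, are left out. Hoxa2, Hoxa3 and Hoxb2 are bright on the left of each panel (C4, C8, C1, C2), Hoxb9 and Hoxb13 in C0, and Hoxc10 and Hoxc11 in C3.

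Hoxc11 was found above all in C3, the cluster of intestinal genes. It stood at 86.4 CPM (79.6 to 93.6) in the smaller library and 86.7 (79.9 to 93.8) in the larger, and C3 held 70.5% of all its UMIs. A Hoxc11 UMI was found in 36.3% and 38.0% of the C3 cells, and in 0 of the 148 (which allows up to 2.46%, Clopper-Pearson) and 1 of the 353 cTEC-like cells of C8, at a like median depth. Hoxc10, a neighbouring posterior gene, gave 21.9 and 22.8 in C3 and 19.1 and 30.4 in tuft-like C9, and Hoxc9 7.10 and 7.17 in C3 and 9.55 and 6.32 in C9. Hoxc6 gave 16.8 and 11.4 in C3, and Hoxc8, both genes of the thoracic region, 11.6 and 10.4. In the larger library Hoxc6 was highest in C9, and over both libraries together it stood at 14.1 in C3 and 10.4 in C9. In C1, C2, C4 and C8 the Hoxc genes together stayed between 0.32 and 2.62 CPM in either library, against 149 and 144 in C3. They also reached 54.3 and 68.3 in C9, 44.3 and 62.0 in C10, 44.3 and 49.0 in C0, and 99.8 and 125 in the 42 cells of C12, so Hoxc transcripts were not particular to C3.

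Hoxb9, Hoxb13 and Hoxb8 were found above all in the Aire-rich C0. Hoxb9, a gene of the posterior trunk, stood at 29.5 (26.2 to 33.1) and 22.9 (20.3 to 25.8) CPM in C0, and C0 held 74.5% of its UMIs. Hoxb13, the most posterior Hoxb gene and a factor of prostate and hindgut, stood at 23.6 and 12.0 in C0, and Hoxb8 at 7.24 and 9.08. In C1 Hoxb9 had 0 UMIs in the smaller and 2 in the larger library. C7, whose Aire level was as high as that of C0, had less of them: 7.72 and 7.96 of Hoxb9, 1.45 and 0 of Hoxb13, and 0.24 and 0.61 of Hoxb8. The summed level of all Hox genes was 152 and 134 in C0, 42.7 and 34.9 in C7, and 29.3 and 29.6 in TA-mTEC-like C6. C7 thus had the higher Aire level and the lower Hox level.

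Among the Hoxd genes, Hoxd4 stood at 15.1 and 12.8 CPM in C3 and 6.62 and 6.49 in C0. It was at 0 in C1 and C2 in both libraries. Counts of Hoxd3 and Hoxd4 may be affected by their overlap, since 9.26% of the exon bases of Hoxd3 and 13.2% of those of Hoxd4 are shared on the same strand. The same holds for Hoxc10 (8.70%) and Hoxc5 (5.37%).

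Tuft-like C9 had a Hox set of its own makeup, described after its values were seen. Hoxa13, a limb and hindgut gene, stood at 12.2 (8.08 to 17.6) and 14.4 (9.29 to 21.2) CPM there, and C9 held 71.6% of its 74 UMIs. Hoxa5 stood at 13.02 and 12.1 in C9 and at no more than 1.55 in any other cluster of at least 100 cells. Hoxb9 was at 0 in C9 in both libraries. Neuroendocrine-like C12 held Hoxc6 at 30.7 and 15.6 and Hoxc9 at 11.5 and 39.1, from 24 and 18 cells, so these levels are loosely fixed. Hoxa2, Hoxa3 and Hoxa4 were at 0 in C12 in both libraries.

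The summed macrophage and dendritic cell markers were high in C0 and C3, mostly through Lyz2. The 6 macrophage and dendritic cell markers summed to 846 and 840 CPM in C0 and to 1023 and 927 in C3, against 11.9 and 8.18 in C1 and 481 and 412 in the Hox-poorer C7. They summed to 578 and 649 in C10 and to 1056 and 156 in C12. In tuft-like C9 they summed to 68.2 and 61.5, where the Hoxc genes together stood at 54.3 and 68.3. Lyz2 alone gave 679 and 687 in C0 and 975 and 873 in C3, Itgax was at 0 in C3, and the leukocyte gene Ptprc gave 5.65 and 16.7 there. C1qa gave 33.4 and 37.5 in C0 and 3.33 and 8.16 in C3. Without the cells that held UMIs of 2 or more of these markers, Hoxc11 in C3 stood at 78.9 and 92.9, and Hoxb9 in C0 at 23.5 and 26.7. Cells with Lyz2 as their only marker stayed in.

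When cells were ordered by Aire, Hoxa2, Hoxa3, Hoxa4 and Hoxb2 were lower and Hoxb9 higher in the cells with more of it. Each cell was put in a class by its Aire UMIs after thinning to 4000 UMIs: 0, 1 to 2, 3 to 5, or 6 and more, with 2159, 444, 332 and 298 cells in the smaller library and 3229, 741, 585 and 510 in the larger. Hoxa3 stood at 11, 3.35, 2.18 and 0.16 CPM over the 4 classes of the smaller library, and at 11.1, 2.63, 1.19 and 0.44 in the larger. It was lower at each step in both libraries. Hoxb9 stood at 0.71, 7.39, 22.5 and 18.6 in the smaller library and at 0.97, 5.03, 13.2 and 16.0 in the larger. The highest over the lowest class gave log2 ratios for Hoxb9 of 4.68 (3.80 to 5.61) and 4.03 (3.35 to 4.73), and for Hoxa3 of -5.49 (-7.16 to -3.31) and -4.49 (-6.12 to -3.10). The Hoxa3 ratios rest on very few UMIs in the highest class.

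By position, paralogs 1 to 3 together went from 36.5 and 34.8 CPM without Aire to 14.4 and 10.7 with 6 or more Aire UMIs. Paralogs 9 to 13 went from 17.3 and 16.3 to 54.5 and 57.7. The middle paralogs, 4 to 8, went from 19.8 and 11.4 to 27.3 and 32.6. Over all cells the posterior paralogs were already higher at 1 to 2 Aire UMIs in the smaller library (66.0, then 78.4 at 3 to 5). They rose in smaller steps in the larger (41.1, then 45.9). Only 345 of the 2159 cells without Aire in the smaller library, and 518 of 3229 in the larger, lay in C0, C3, C6 and C7. The classes thus differed in cell type, and these sums are no measure of Aire within a cell type. Within these clusters the posterior members went both ways, Hoxb9 higher and Hoxc11 lower with Aire (values below).

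Of the 15 members, 6 (Hoxb9, Hoxb13, Hoxc6, Hoxc11, Hoxd3 and Hoxd4) were over 1.5-fold higher in the highest than in the lowest Aire class in both libraries, where 20.7% of all 15105 genes with at least 200 UMIs were. Lower by as much in both were 4 members (Hoxa2, Hoxa3, Hoxa4 and Hoxb2), where 25.3% of all genes were. The median log2 ratio of the 15 members was -0.31 in the smaller and 1.29 in the larger library, against -0.20 and -0.17 over all genes. The count of lower members was near the share of all genes, and paralogs 3 and 4 stood on both sides, Hoxd3 and Hoxd4 higher and Hoxa3 and Hoxa4 lower.

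Within C0, C3, C6 and C7 alone, Hoxa3 was again lower with Aire, from 4.15 and 4.54 CPM without Aire to 0.16 and 0.44 with 6 or more Aire UMIs. The highest class held 1 and 4 Hoxa3 UMIs. These clusters were pooled, C6 held the most Hoxa3 of them, and the share of C6 cells per class was not held equal. The other members that were lower over all cells were not clearly so there. Hoxa2 had log2 ratios of -0.06 (-1.94 to 1.82) and -1.83 (-3.28 to -0.49), Hoxa4 of 0.09 (-3.44 to 3.62) and -1.58 (-4.33 to 1.22), and Hoxb2 of -0.54 (-1.56 to 0.46) and -0.72 (-1.63 to 0.16). Hoxb9 went there from 1.84 and 3.88 to 18.6 and 16.1. Hoxc8, Hoxc10 and Hoxc11 were lower with Aire within these clusters. Hoxc11 stood at 29.0 and 32.5 without Aire and at 16.7 and 18.9 with 6 or more, Hoxc10 went from 10.8 and 10.6 to 3.43 and 4.33, and Hoxc8 from 9.06 and 4.43 to 1.31 and 1.56. Hoxc6 and Hoxc9 had opposite signs in the 2 libraries there, and Hoxd4, higher over all cells, had log2 ratios of -0.65 (-1.58 to 0.27) and -0.36 (-1.25 to 0.52). Inside C3 the levels of Hoxc11 over the 4 classes were 48.8, 135, 145 and 76.9 in the smaller library and 82.9, 93.1, 85.2 and 88.6 in the larger, with no common order. Hoxb9 inside C0 went from 2.60 to 25.6 in the smaller library, but stood at 23.2 and 21.0 in the larger, so that it was higher with Aire within C0 in 1 library only.

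**Figure D2:**
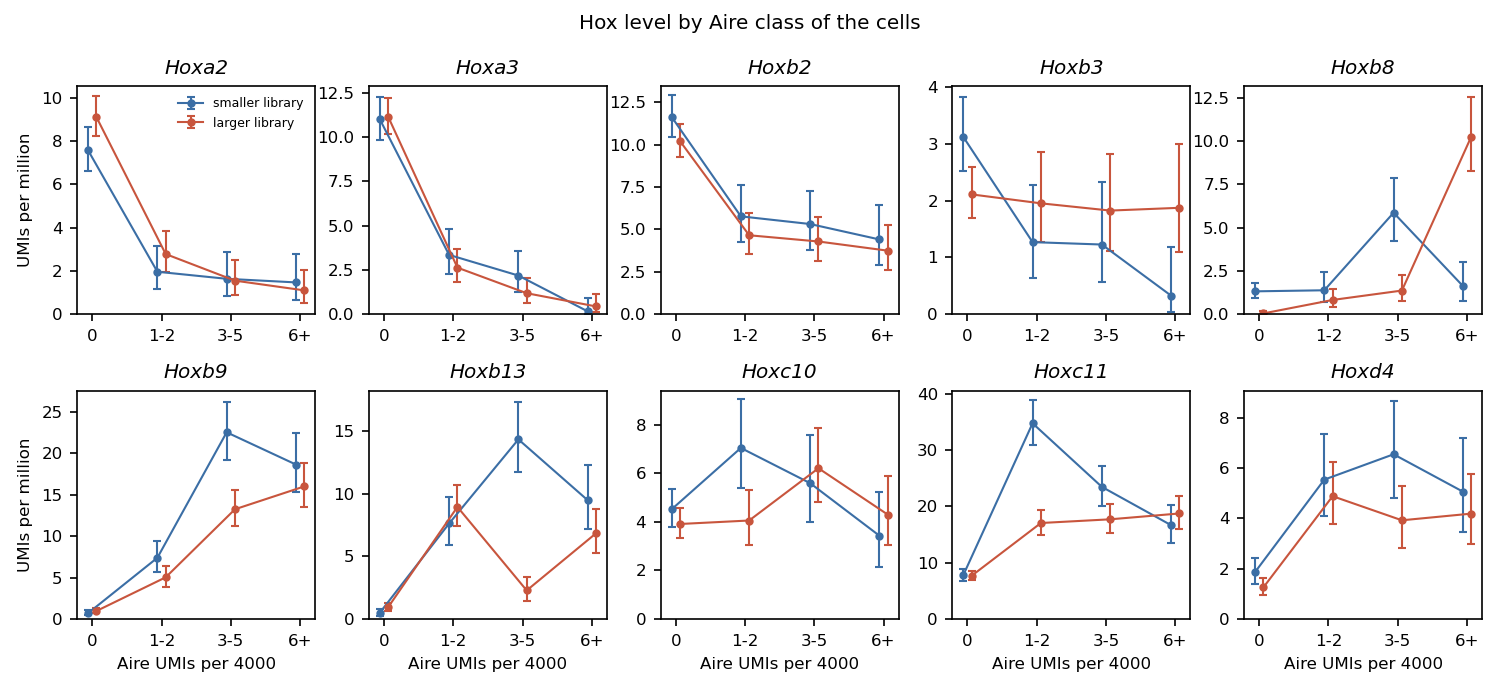
Level of 10 Hox genes in CPM (vertical axes, from 0, each with its own scale) by the Aire UMIs of the cells after thinning to 4000 UMIs (horizontal axes), in the smaller (blue) and larger (red) library; bars are exact Poisson 95% intervals, counting error only. Hoxa2, Hoxa3 and Hoxb2 are highest in the first class, Hoxb9 goes from 0.71 and 0.97 to 18.6 and 16.0, and Hoxc10 shows no common order.

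Hoxb13 and Hoxb8 transcripts sat in few cells at many UMIs each. Hoxb13 was found in 33 cells of the smaller and 48 of the larger library, at 6.05 UMIs per cell with a UMI, and up to 52 and 36 UMIs in a single cell. Hoxb8 was found in 24 and 18 cells at 5.36 per cell, and up to 18 and 45. Among the 6597 genes whose totals lay in the range of the 15 members (202 to 1720 UMIs) the median was 1.26 UMIs per cell with a UMI and the 95th percentile 5.05, so Hoxb13 and Hoxb8 lay above it. Hoxb9 gave 2.94, Hoxc11 2.71 and Hoxc8 2.10. By contrast Hoxa3 gave 1.15 and Hoxa2 1.15 UMIs per cell with a UMI, spread over 774 and 619 cells. Of the other 24 members, Hoxb1 and Hoxd1, singled out after their values were seen, gave 5 and 4.79 from 7 and 19 cells.

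Such sharing of UMIs within a cell makes the Poisson intervals too narrow for these genes, since their molecules were not independent draws over cells. The highest cell alone set some levels. Without it Hoxb13 in C0 was 18.3 and 9.83 CPM, and Hoxb8 in C0 5.40 and 5.44. In C10 a single cell held 16 of the 17 Hoxb8 UMIs of the smaller library. In the larger library a single TA-mTEC-like cell held 36 of the 55 Hoxb13 UMIs of C6, and the 16 Hoxb13 UMIs of cTEC-like C8 were those of a single cell.

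**Figure D3:**
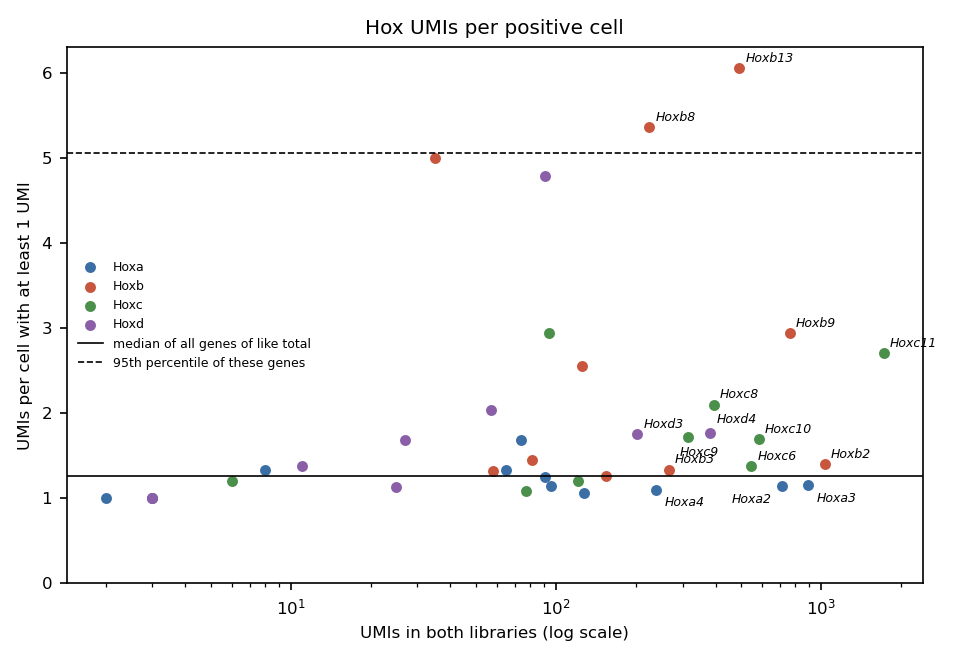
UMIs per cell with at least 1 UMI (vertical axis, from 0) against total UMIs in both libraries (horizontal axis, log scale) for the 39 Hox genes, coloured by Hox cluster, with names for the 15 members of at least 200 UMIs. Hoxb13 (6.05) and Hoxb8 (5.36) lie above the dashed 95th percentile (5.05) of the genes of like total, and Hoxa2, Hoxa3 and Hoxa4 below their median (solid, 1.26).

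Some pairs of one Hox cluster were found more often in the same cells, whereas others were not clearly so. In C0, Hoxb9 had a UMI in 64.3% (35.1 to 87.2) of the 14 cells with Hoxb8 and in 13.8% (10.9 to 17.2) of the 484 without in the smaller library. In the larger library these shares were 90% (55.5 to 99.8) of 10 cells and 12.0% (9.71 to 14.5) of 735. The intervals did not overlap in either library, at median depths of 21359 against 18341 UMIs in the smaller and 15203 against 15793 in the larger. Hoxb13, which lies apart from Hoxb9 in the cluster, went with Hoxb9 less clearly: Hoxb9 had a UMI in 17.4% of the cells with Hoxb13 and 15.2% of those without in the smaller library, and in 31.4% and 12.1% in the larger.

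In C3, Hoxc10 had a UMI in 36.9% (29.4 to 45) of the cells with Hoxc11 and in 13.1% (9.34 to 17.7) of those without in the smaller library, and in 26.8% (20.7 to 33.6) and 8.20% (5.43 to 11.8) in the larger. Hoxc9 went with Hoxc8 in the same way, at 34.1% against 5.88% and 29.2% against 5.83%. Hoxd4 had a UMI in 46.2% and 52.9% of the C3 cells with Hoxd3, against 10.1% and 9.72% of those without, where shared exon bases limit the reading. Pairs from different Hox clusters varied. In C0, Hoxc11 had a UMI in 15.8% and 13.4% of the cells with Hoxb9 and in 14.5% and 12.0% of those without, and in 21.7% and 20% of the cells with Hoxb13 against 14.3% and 11.8%. In C3, Hoxd4 had a UMI in 19.1% (13.3 to 26.1) of the cells with Hoxc11 and 8.36% (5.38 to 12.3) of those without in the smaller library, and in 13.4% and 9.78% in the larger.

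Over all pairs of the 15 members in C3, a partner of the same Hox cluster was found in 29.5% and 24.9% of the cells with a member, against 8.67% and 8.11% of the cells without it. A partner of another Hox cluster was found in 6.37% and 4.42%, against 7.54% and 6.24%. In C0 the same-cluster shares were 15.4% and 15.4% against 5.53% and 4.74%, and those of other clusters 7.84% and 5.47% against 5.24% and 4.59%. Pairs share cells and genes, so these shares carry no interval. They also pool the counts of all pairs, so that common members weigh more among cells with a member than among cells without. Such weighting alone can part the shares, so they do not show on their own that neighbours go together. The same direction, same-cluster partners more often with than without the member, was seen in C6, C7 and C9 in both libraries, with the same limit. Partners of other Hox clusters were also more frequent with the member in C7, at 4.41% and 2.77% against 2.81% and 2.01%. In C9 they were at 2.34% and 4.93% against 3.73% and 1.87%, and in C6 at 2.81% and 2.62% against 2.89% and 2.95%. In cTEC-like C8 the abundant neighbours Hoxa2 and Hoxa3 differed little: Hoxa3 had a UMI in 28% and 21.1% of the cells with Hoxa2 and in 22.0% and 20.6% of those without. In C1 the same pair gave 29.5% and 20.6% with Hoxa2 against 13.9% and 11.7% without. In C4, Hoxa4 gave 10.5% and 22.4% with Hoxa3 against 9.15% and 8% without. In C9, Hoxc9 gave 22.6% and 12.1% with Hoxc10 against 8.20% and 6.14%. In C3, Hoxc11 gave 41.6% and 51.6% with Hoxc6 against 35.2% and 36.1%. The intervals overlapped for the C8, C1, C9 and C3 pairs in both libraries, and for the C4 pair in the smaller. The C1 cells with Hoxa2 were also deeper, at medians of 11773.5 against 10167 UMIs in the smaller and 10314.5 against 9235.5 in the larger library.

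**Figure D4:**
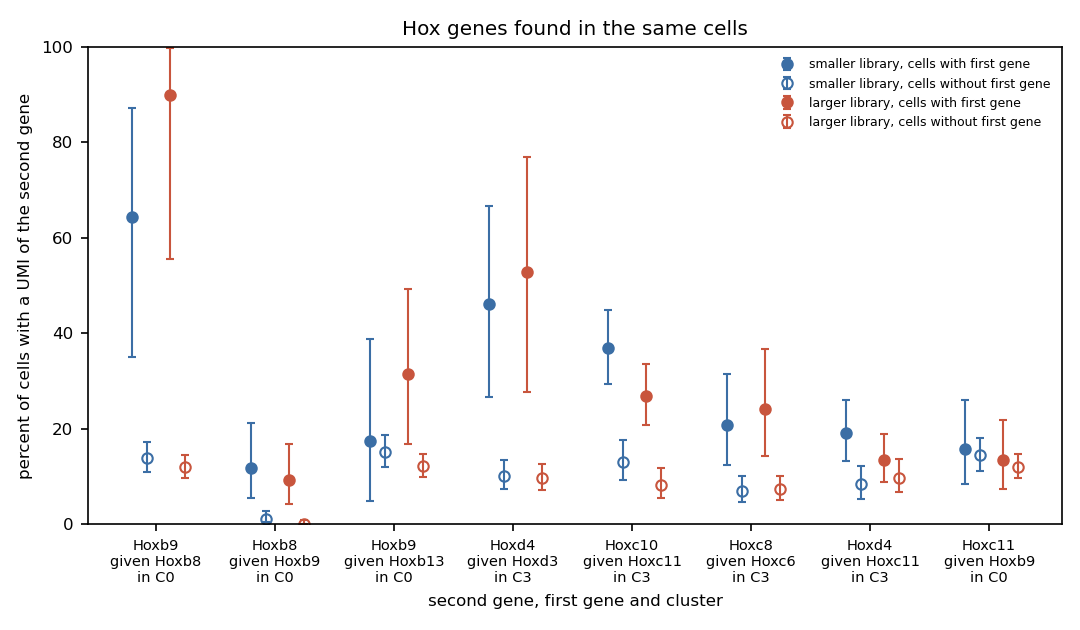
Share of cells with a UMI of a second Hox gene (vertical axis, percent) among cells with (filled) and without (open) a UMI of a first Hox gene, within cluster C0 or C3, in the smaller (blue) and larger (red) library; bars are Clopper-Pearson 95% intervals, counting error only. Filled points lie far above open ones for Hoxb9 given Hoxb8 (64.3% and 90% against 13.8% and 12.0%) and close to them for Hoxc11 given Hoxb9.

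Between the libraries the Hox genes in sum were lower in the larger one. The log2 ratio of all Hox genes together was -0.33 (-0.41 to -0.25). It was 0.01 (-0.16 to 0.18) for the Hoxa genes, -0.38 (-0.53 to -0.24) for Hoxb, -0.42 (-0.55 to -0.29) for Hoxc and -0.69 (-0.97 to -0.40) for Hoxd. Hence over all cells the Hoxa interval included 0 and the others did not, though such intervals are too narrow where UMIs share a cell. Within C3 and C0 the Hoxc ratio was -0.05 (-0.23 to 0.13) and 0.14 (-0.11 to 0.40). Its interval lay below 0 in C2 and C5, where Hoxc UMIs were few (11 and 2, and 35 and 8, in the smaller and larger library). When every cluster was given the same weight in both libraries, a choice made after seeing the data, the ratio of all Hox genes was -0.11.

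Of the 15 members, 2 passed 1.5-fold between the libraries, Hoxc8 and Hoxd3, both lower in the larger library, and 7.62% of all 15105 genes passed in either direction. The median log2 ratio was -0.35 over the members and -0.04 over all genes. Hoxc8 stood at 4.38 CPM (3.83 to 4.99) in the smaller and 2.21 (1.89 to 2.57) in the larger library, a log2 ratio of -0.99 (-1.40 to -0.57). A single C0 cell held 51 of its 226 UMIs in the smaller library, and without the highest cell of each library the ratio was -0.72. Hoxd3 stood at 2.25 and 1.14, a log2 ratio of -0.98 (-1.56 to -0.40). Hoxa2 had the highest ratio, at 0.23 (-0.08 to 0.54).

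The log2 ratio of Hoxc11 was -0.37 (-0.56 to -0.17) over all cells. Its levels in C3 were 86.4 and 86.7 CPM, and C3 made up 432 of the 3233 cells of the smaller and 511 of the 5070 of the larger library, whose part in the ratio was not tested. With the same makeup its log2 ratio was 0.046, and that of Hoxc10 0.31 against -0.20. Hoxb9, at -0.42 (-0.71 to -0.13), and Hoxb13, at -0.54 (-0.90 to -0.17), were at -0.26 and -0.39 with the same makeup. Without the cells with 2 or more mesenchymal markers the ratio of Hoxb9 was -0.02 and that of Hoxb8 moved from -0.33 to -1.95, a gene with UMIs in 24 and 18 cells. Within clusters the interval of the summed Hox level left out 0 in C0, at -0.19 (-0.33 to -0.04), and in C10, at -0.52 (-0.99 to -0.05), and included it in the other 12. These intervals are too narrow as well, since 1 cell held 95 of the 1468 Hox UMIs of C0 in the smaller library and 1 cell 32 of the 189 of C10. Without the cell with the most Hox UMIs in each library, a choice made after seeing the data, the ratios were -0.15 (-0.30 to -0.0015) in C0 and -0.38 (-0.88 to 0.12) in C10, which then included 0.

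**Figure D5:**
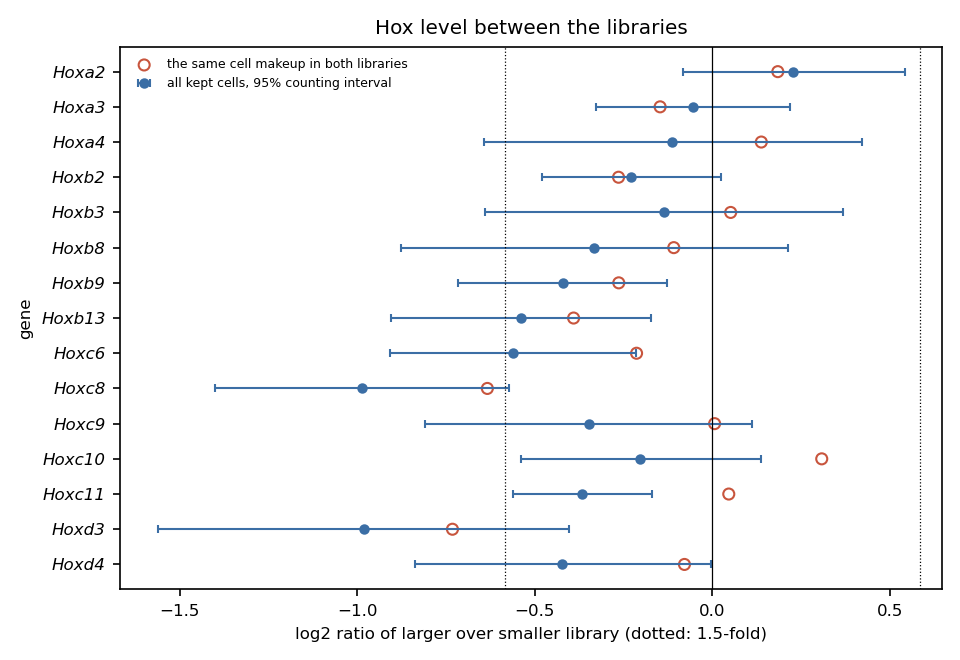
Log2 ratio of larger over smaller library (horizontal axis) for the 15 Hox genes of at least 200 UMIs: filled points, all kept cells with a 95% interval from counting error only; open points, the same cell makeup in both libraries; dotted lines, 1.5-fold. Hoxc8 and Hoxd3 lie past the dotted line, and the open points of Hoxc11 (0.046) and Hoxc10 (0.31) lie right of 0.

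Among the genes that work with Hox proteins, the TALE cofactors differed by less than the fold used here between the libraries. All 9 (Pbx, Meis and Pknox genes, homeodomain proteins that bind DNA with Hox proteins) had at least 200 UMIs, and 0 of 9 passed 1.5-fold between the libraries, with log2 ratios from -0.13 to 0.21. With Aire, 5 were lower by over 1.5-fold in both libraries and 1, Pbx4, was higher, against 25.3% and 20.7% of all genes. Meis1 had log2 ratios of the highest over the lowest Aire class of -2.67 and -2.39, the direction of Hoxa2 and Hoxa3. Pbx4, with 507 UMIs, had 1.11 and 1.31. It stood at 271 CPM in the 20 cells of ciliated-like C13, 10.1 in C0, 7.91 in C9 and 0.65 in C1.

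Of the 16 regulators of Hox chromatin and transcription, 15 had at least 200 UMIs, 0 passed the fold between the libraries, and with Aire 5 were higher and 3 lower in both, where 20.7% and 25.3% of all genes were. Cdx2, a caudal homeodomain factor that acts upstream of posterior Hox genes in the embryo, had Aire log2 ratios of 2.83 and 3.26, and Cdx1 2.79 and 3.06. Cdx1 stood at 393 CPM in C7, 195 in C6, 183 in C3, 176 in C0 and 1.14 in C1. Cdx2 stood at 20.002 in C0, 4.50 in C7, 3.21 in C3, 1.16 in C6, 0.08 in C1 and 48.9 in the 42 cells of C12. Cdx1 was thus highest in C7, and as high in C6 as in C0 and C3, whereas Cdx2 was higher in C0 than in C3, C6 and C7. C7 and C6 had less Hox RNA than C0 and C3, and a link to the Cdx levels was not tested. Ezh2, a Polycomb methyltransferase, was highest in the dividing C6, at 135. Jarid2 and Kdm6a were the other members of this list that were higher with Aire.

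Of the 9 genes of the third pouch network, which includes Hoxa3, 4 were lower with Aire by over 1.5-fold in both libraries and 1, Tbx1, was higher, against 25.3% and 20.7% of all genes. Pax1, with Pax9 a factor of the pouch, had Aire log2 ratios of -2.39 and -2.22 and stood at 677 CPM in cTEC-like C8, 372 in C4 and 25.9 in C3. Foxn1, the master regulator of TECs, had 0.83 and 0.43 and stood at 157 in C8 and 80.5 in C0. Pax1 and Hoxa3 thus had the same direction with Aire, and Foxn1 did not.

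Of 10 noncoding genes of the Hox loci, 4 had at least 200 UMIs, and all 4 were lower with Aire in both libraries, where 25.3% of all genes were. Hotairm1, a noncoding neighbour of Hoxa2, stood at 78.9 CPM in nurse cTEC-like C11, 59.99 in C8, 47.1 in C4, 25.7 in tuft-like C9, 19.7 in C1, 13.4 in C2 and 1.21 in C3. Hoxb3os stood at 33.5 in C4, 26.8 in C8, 6.41 in C10 and 1.57 in C3, and Hoxaas2 at 15.7, 10.4 and 0.14 in C8, C4 and C3. Hotair, of the Hoxc cluster, had 137 UMIs and stood at 7.78 in C3, 0.77 in C0 and 0 in C1, and was thus higher in C3 than in C0 and C1, as Hoxc11 was. The strand setting of the counting was not given in the sources used here, so that reads of an antisense gene and of its Hox neighbour may not be fully apart.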

How the data were processed

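UMI counts per gene and barcode were deposited by the authors, who made them with Cell Ranger (5.0.1 per the file headers, 5.1 per the labels) on mm10 from droplet-based 3′ single-cell libraries. The labels and the study name different kit versions. Cells with more than 2000 and fewer than 7500 detected genes and under 15% mitochondrial UMIs were kept, where genes found in at least 5 barcodes of a library counted as detected and entered the clustering. This left 51586327 UMIs in the smaller and 75542631 in the larger library (medians of 13412 and 13003.5 per cell). No doublet caller was run, so doublets were limited by the upper gene limit and by leaving out the 5% of cells with the most UMIs as an alternative. The libraries shared 17 barcodes, 5 of them after filtering.

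UMIs were summed per library and cluster or Aire class and divided by all UMIs of the same cells. A log2 ratio had 0.5 UMI added to each sum, and its interval combined the opposite ends of both Poisson intervals. Clusters came from Seurat 5.3.0 (R 4.3.3): 3000 variable genes per library, 2000 anchor features, 20 components, resolution 0.5, with Hox genes removed. Leading genes were ranked by fold among genes in at least 25% of the cells of a cluster. Cells under 4000 UMIs (0 and 5) were left out where cells were thinned. Python 3.11.15 with scipy 1.17.1 did the rest. The ratio was tested on simulated counts drawn independently per gene and library, which does not cover UMIs that share a cell. Coordinates are from GENCODE vM21 (GRCm38). Values are given for the members of at least 200 UMIs, in each comparison for the 10 highest totals and the highest and lowest ratio, with others named where stated. The members, gene lists and comparisons were chosen with earlier results of these data known. Alternatives were other limits on cells, other clusterings, other Aire classes and other minimums, and those added after seeing the data were the highest cell left out, an equal cell makeup, Aire classes within clusters, shared barcodes left out, and cells with mesenchymal or myeloid markers left out of clusters. The deposited tables do not tie cells to mice. Some genes of these lists are not reported here by name.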

Additional observations from a re-analysis of the deposited data

How the results depend on the processing

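No paired analysis was possible because each condition had 1 library. Of the recomputed summary values, 85 moved by less than their counting interval and 26 by more. The log2 ratio of all Hox genes between the libraries (-0.33) was -0.25 as a mean over cells and -0.11 with the same cell makeup. Paralogs 9 to 13 (-0.37) gave -0.23 and -0.033 and paralogs 4 to 8 (-0.57) gave -0.24 with that makeup, where Hoxc11 reversed to 0.046. With a lower limit of 1000 genes the Aire ratio of all Hox genes in the smaller library was 0.20 against 0.39, that of paralogs 1 to 3 in the larger -1.31 against -1.70, and that of paralogs 9 to 13 in the smaller 1.34 against 1.66. With unthinned Aire classes paralogs 9 to 13 gave 2.07 and 2.06. The summed Hox level of C0 was 119 and 99.7 CPM at resolution 0.3 (smaller and larger library), 147 at resolution 1.0 in the larger, and 182 and 160.1 without integration, where C0 and C3 mapped to the same cluster and these are also the values of C3. C3 was 209 at resolution 1.0 in the smaller and 169 at 0.3 in the larger library. The share of cells with a Hox UMI was 46.9% and 42.4% without thinning and 18.3% and 16.0% at 3000 UMIs. Members past the fold numbered 5 of 19 with a minimum of 100 UMIs (10.4% of all genes), 13 of 38 with at least 1 UMI in each library (23.2%) and 0 at 2-fold (1.83%). The causes were not tested, apart from the fewer or more genes that a minimum or fold admits by construction. Of the 24 members below 200 UMIs, the interval of the ratio between the libraries included 0 for 20.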

Other observations

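The cell with the most Hox UMIs held 95 UMIs in the smaller and 66 in the larger library, and the most Hox genes found in a cell without thinning were 11 and 9. At least 3 different Hox genes were found after thinning in 1.24% of the cells of the smaller library (0.89 to 1.68) and in 0.77% of the larger (0.55 to 1.05). In cluster C3 this share was 4.17% and 2.54%, and in the cTEC-like C8 it was 0 of 148 and 0 of 353 cells, which allows up to 2.46% and 1.04% by the Clopper-Pearson interval.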
